A study of Mus musculus with 25 samples.

Results

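The genes described here are Trp53, which encodes the transcription factor p53, and 9 of its target genes: Mdm2, Cdkn1a, Ccng1, Sesn1, Trp53inp1, Aen, Phlda3, Bbc3 and Zmat3. They were chosen by gene symbol in the annotation of the array's probes. Of these 10 genes, 9 had a probe of that symbol, and Trp53 itself was not analysed here. The 9 genes had 23 of the 45281 probes on the array, and 22 of these were among the 19140 probes kept, those with a detection p under 0.01 on at least 2 of 25 arrays. All samples were embryoid bodies (EBs), aggregates in which embryonic stem cells begin to differentiate, made from the mouse embryonic stem cell line B6G-2. The line is of C57BL/6 background, comes from a mouse that expresses green fluorescent protein constantly, and was grown on fibroblast feeder cells that were removed before the EBs were formed. EBs were exposed for 48 h, from the withdrawal of leukemia inhibitory factor on, to 1 of 12 chemicals, each at 2 doses, or to dimethyl sulfoxide (DMSO) alone at 0.1%, in which all the chemicals were dissolved. Thalidomide (TMD), permethrin (PMT) and cyclopamine (CPM) were given at 10 and 0.1 µM, and bis(2-ethylhexyl)phthalate (DEHP) and methoprene acid (MPA) at 100 and 1 µM. Triiodothyronine (T3), dexamethasone (DEX), TCDD (a dioxin) and PCB (a hydroxylated pentachlorobiphenyl) were given at 10 and 1 nM, as were estradiol (E2) and dihydrotestosterone (DHT). The sample labels spell the latter dehydrotestosterone. Bisphenol A (BPA) was given at 100 and 1 pM.

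p53 is held at a low level by Mdm2, a ubiquitin ligase that p53 itself induces, and DNA damage and other stresses release it from Mdm2. Released p53 binds pairs of short half-sites near its target genes, whose products halt the cell cycle, restrain growth, repair damage or start cell death. In mouse embryonic stem cells p53 is also known to repress the pluripotency gene Nanog after DNA damage.

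The windows around annotated gene starts are shown because they hold letters of the kind p53 binds in 6 members. RefSeq sequences (build GRCm38.p6) of 250 bases before to 50 bases after a start were matched by symbol for 8 of the 10 genes, in 13 windows. A p53 half-site of 10 bases, read on both strands at once since it is palindromic, was found in 7 of the 13 windows, of which those of Aen overlap and hold the same half-site, and in 8.36% of all 32851 windows. A pair of half-sites no more than 13 bases apart was found in 0.0731% of all windows and, among the members, in 1 window of Cdkn1a. That window lies at chr17:29090729-29091028 on the plus strand. Capitals mark its exact matches to the half-site pattern, which are 12 bases apart. The first match starts 73 bases before this start of the gene and 2863 bases before the gene's other annotated start. Strings that miss the pattern in any letter were not counted. The 10 bases right after the second match (tgacatgttc) miss it in their first letter only, so they are not marked, nor counted as its partner.
Cdkn1a: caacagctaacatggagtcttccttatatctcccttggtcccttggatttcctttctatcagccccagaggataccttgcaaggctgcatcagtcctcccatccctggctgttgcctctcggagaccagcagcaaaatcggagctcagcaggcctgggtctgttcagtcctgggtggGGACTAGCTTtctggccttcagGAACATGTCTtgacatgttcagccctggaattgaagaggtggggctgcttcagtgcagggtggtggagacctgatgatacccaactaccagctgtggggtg

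Single half-sites, in capitals with 10 bases on each side, stood in windows of Trp53 (chr11:69580274-69580303, plus strand), Mdm2 (chr10:117710925-117710954, minus strand), Ccng1 (chr11:40755452-40755481, minus strand), Sesn1 (chr10:41887256-41887285, plus strand) and Aen (chr7:78895927-78895956, plus strand).
Trp53: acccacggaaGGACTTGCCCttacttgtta
Mdm2: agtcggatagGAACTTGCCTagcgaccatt
Ccng1: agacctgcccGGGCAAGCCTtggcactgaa
Sesn1: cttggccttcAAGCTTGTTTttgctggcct
Aen: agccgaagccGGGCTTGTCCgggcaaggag

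The windows of Phlda3 (gene at chr1:135766085-135769134) and Bbc3 (chr7:16308398-16318334) did not hold these letters, and Trp53inp1 (chr4:11156441-11174379) and Zmat3 (chr3:32334792-32365665) were not matched. A match is a string of letters and was not tested as a site of binding.

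Each condition was measured on 1 Illumina Mouse WG-6 array, and replicates of a condition were thus lacking. The spread in the tests came from how far apart the doses of each chemical lay, pooled over the 12 chemicals. The p-values therefore measure the spread between these arrays, and no source used here says whether an array held RNA of several cultures. Between 14451 and 16381 probes were detected per array. Chemicals that shared a dose range and a set in the authors' normalization form groups of arrays, namely TMD, PMT and CPM (6 arrays), DEHP and MPA (4 arrays), T3, DEX, TCDD and PCB (8 arrays), BPA (2 arrays) and E2 and DHT (4 arrays, of the same set as BPA and DMSO). Between these groups, chemical, dose range and set of arrays cannot be told apart. In bulk RNA, fewer cells of a type and less RNA per cell cannot be told apart either. The pluripotency genes Pou5f1, Sox2, Nanog and Zfp42 (4 of 4) were detected in every group. Of the 3 neural markers, Nes was detected in every group and Sox1 and Pax6 in none. Of the 5 fibroblast markers, Thy1 was detected in every group, Col1a1, Col1a2 and Col3a1 each in some groups only, and Lum in none. The doses of E2 lay furthest apart, with a median absolute log2 difference of 0.28 over all genes, against 0.13 to 0.19 for the other chemicals, and where leaving out an E2 array changed a call in the comparisons within groups or of BPA with E2 and DHT, this is said.

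Each gene was represented by its brightest kept probe on average. For 8 of the 9 genes this probe was detected on all 25 arrays with a deposited signal far above background, between 1735 and 3114 for Cdkn1a and between 2897 and 9243 for Mdm2. Aen was the exception, with a deposited signal of at most 132 and detection on 14 of 25 arrays. All values below are log2 of the background-corrected signal, normalized over the 25 arrays together, unless called deposited signal. Differences were tested with limma and adjusted over all kept probes by the Benjamini-Hochberg method at 0.05. Where arrays are said not to overlap and no share of all genes is given, that share was not counted.

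**Figure D1:**
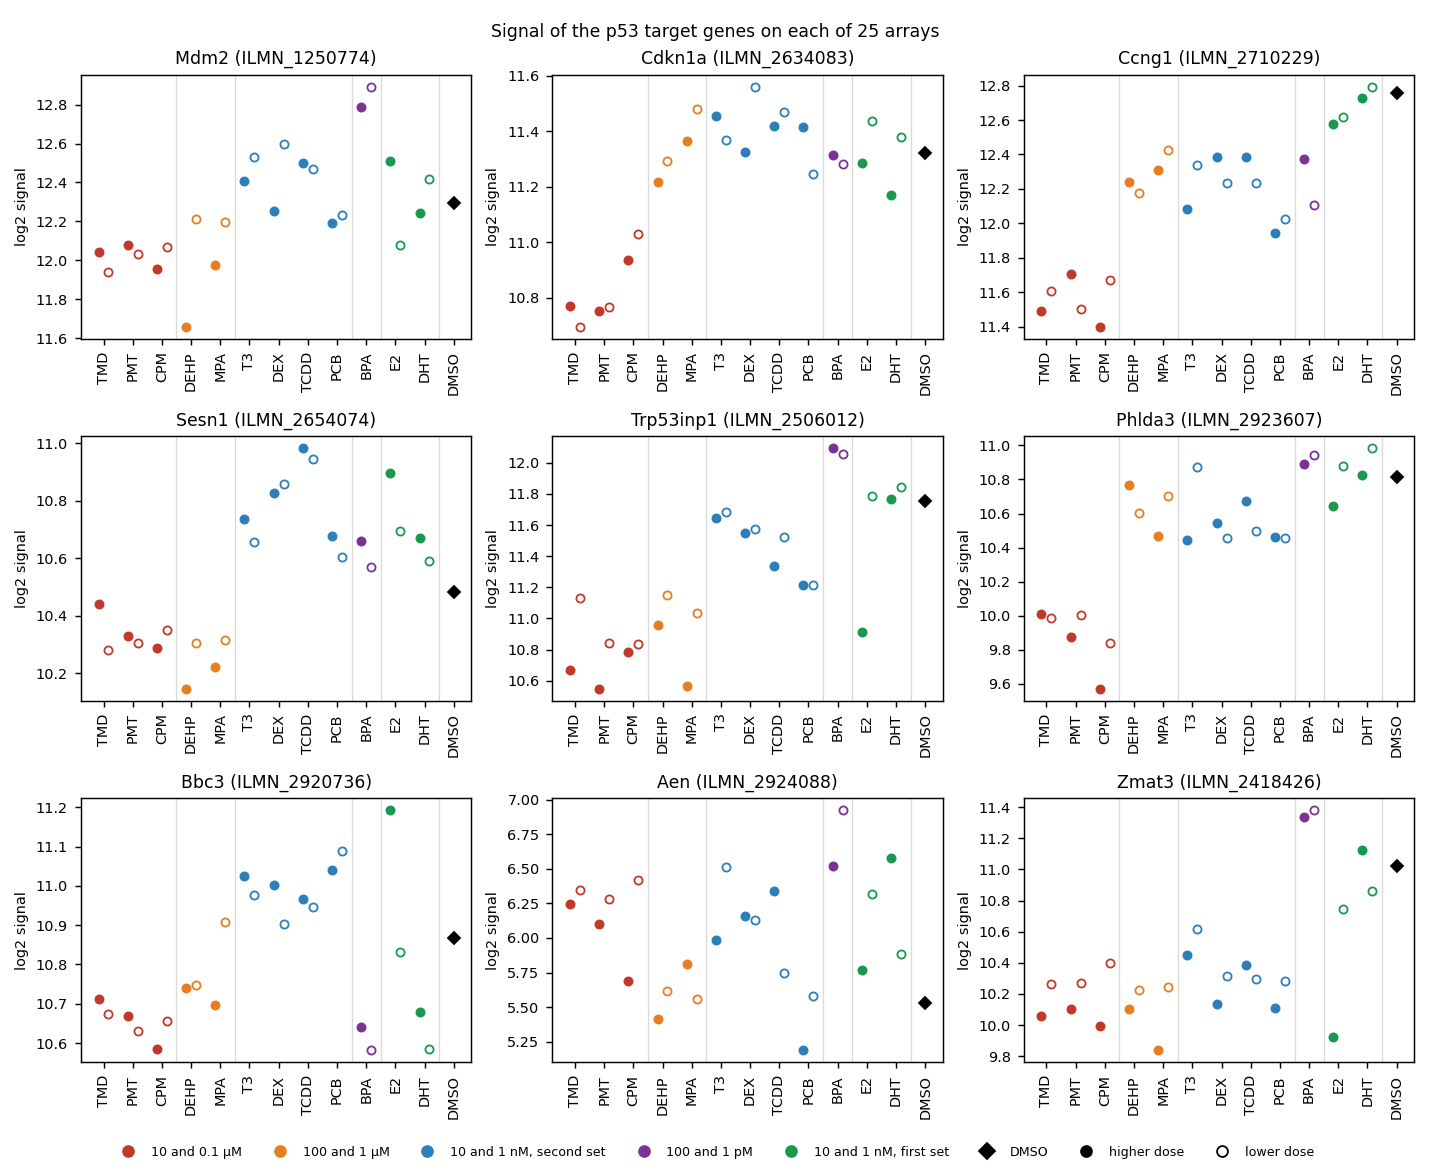
Log2 signal of the 9 genes on each of the 25 arrays, by chemical, with the higher dose filled and left of the lower dose (open), and DMSO as a diamond at the right. Red points (TMD, PMT and CPM) lie below all other points for Cdkn1a, Ccng1 and Phlda3, and red and orange points (micromolar chemicals) lie below all others for Sesn1.

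The levels of all 9 genes differed among the 12 chemicals (9 of 9 genes, limma F-test, against 77.3% of all 10656 genes). Within the groups of arrays none differed (0 of 9 after adjustment, 2 at an unadjusted p under 0.05, against 11.8% of all genes after adjustment). Without the E2 array at 1 nM 3 of 9 differed within groups.

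In EBs exposed to micromolar chemicals (TMD, PMT, CPM, DEHP and MPA), 7 of the 9 genes were lower than in EBs exposed to nanomolar T3, DEX, TCDD and PCB, and none was higher. Of all genes, 28.9% were lower and 21.5% higher in this comparison. The median difference of the 9 genes was -0.37, and that of all genes was -0.039. The genes that fell were Trp53inp1 by 0.62, Sesn1 by 0.49, Mdm2 by 0.38, Cdkn1a by 0.38, Phlda3 by 0.37, Ccng1 by 0.35 and Bbc3 by 0.29 on the log2 scale. Zmat3 differed by -0.17 ± 0.083 (SE, adjusted p = 0.0836) and Aen by -0.0065 ± 0.14 (SE, adjusted p = 0.975). With 1 mean per chemical, so that chemicals and not arrays are the units, 4 of the 9 genes passed in limma (20.1% of all genes in either direction). The 4 were Trp53inp1, Sesn1, Mdm2 and Bbc3. Cdkn1a (adjusted p = 0.0681), Ccng1 (adjusted p = 0.174), Phlda3 (adjusted p = 0.174), Zmat3 (adjusted p = 0.172) and Aen (adjusted p = 0.986) did not pass.

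The micromolar chemicals were not alike in these genes. Cdkn1a, Ccng1 and Phlda3 were higher after DEHP and MPA than after TMD, PMT and CPM, by 0.51 ± 0.069, 0.73 ± 0.073 and 0.75 ± 0.086 (SE). For each of these 3 genes all 4 arrays of DEHP and MPA lay above all 6 arrays of TMD, PMT and CPM, which was so for 12.6% of all genes. Of all genes, 15.1% were higher and 19.3% lower in this comparison. Sesn1 (-0.086), Trp53inp1 (0.12), Bbc3 (0.12), Mdm2 (-0.0086) and Zmat3 (-0.079) did not pass, and Aen, which was lower after DEHP and MPA, is described with its detection below.

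**Figure D2:**
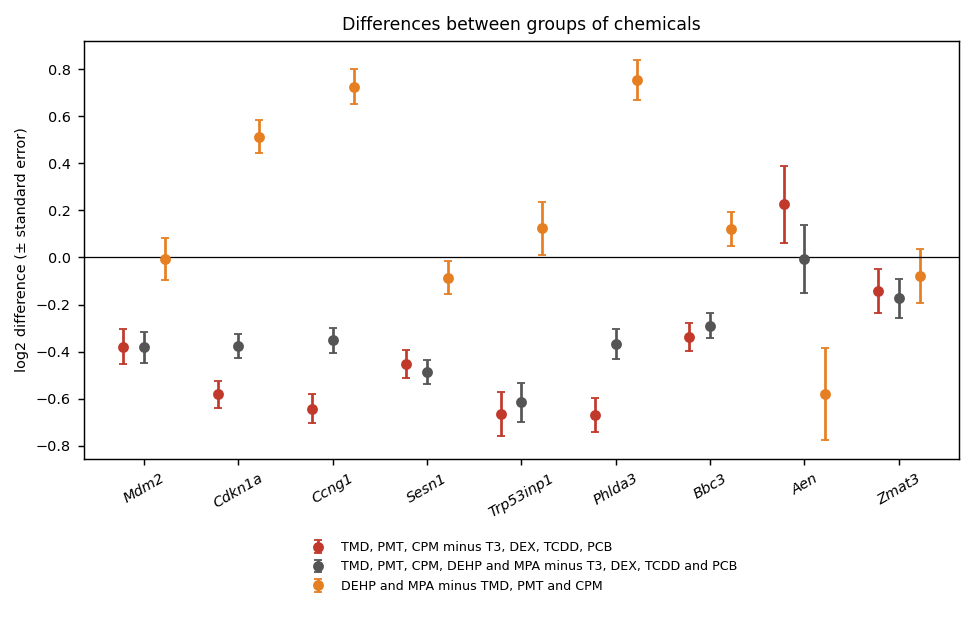
Log2 difference with its standard error for each gene between TMD, PMT and CPM and the nanomolar chemicals (red), between all 5 micromolar chemicals and the nanomolar chemicals (grey), and between DEHP and MPA and TMD, PMT and CPM (orange). The orange points of Cdkn1a, Ccng1 and Phlda3 stand at 0.51 to 0.75, while those of Mdm2, Sesn1, Trp53inp1, Bbc3 and Zmat3 stand between -0.086 and 0.12.

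Without DEHP and MPA, the comparison of TMD, PMT and CPM with the nanomolar group, which was added after the values were seen, gave the same 7 genes as lower (27.5% of all genes were lower). For these 7 genes every one of the 6 arrays of TMD, PMT and CPM lay below all 8 arrays of T3, DEX, TCDD and PCB, which was so for 10.1% of all genes. For Cdkn1a, Ccng1 and Phlda3 the 6 arrays lay below all other 19 arrays, which was so for 1.97% of all genes. DEHP and MPA (4 arrays) lay below all 8 nanomolar arrays for Sesn1 and Trp53inp1, against 9.60% of all genes. In the deposited signal the ranges of TMD, PMT and CPM and of the 8 nanomolar arrays overlapped for each of the 7 genes. Ccng1, for example, was at 2983 to 4429 and at 3535 to 5546.

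Among the genes that act on the cell cycle, Cdkn1a encodes p21, an inhibitor of cyclin-dependent kinases that halts cells before DNA replication. Its signal was 10.70 at the lowest, 10.77 at the median and 11.03 at the highest on the 6 arrays of TMD, PMT and CPM, and 11.22, 11.29, 11.36 and 11.48 on the 4 arrays of DEHP and MPA. It was 11.25, 11.42 and 11.56 (lowest, median, highest) on the 8 arrays of T3, DEX, TCDD and PCB, 11.32 and 11.28 for BPA, 11.29 and 11.44 for E2, 11.17 and 11.38 for DHT, and 11.32 for DMSO. The 6 low arrays did not overlap with any other, and among the rest the chemicals overlapped. The difference from the nanomolar group was -0.58 ± 0.058 (SE) for TMD, PMT and CPM. In the order of chemical means, TMD (10.73) and PMT (10.76) came lowest, then CPM (10.98), and the other 10 conditions lay between 11.25 for DEHP and 11.44 for TCDD. CPM was 0.23 above TMD and PMT (95% interval of the difference 0.045 to 0.42), which did not pass the adjustment over all probes. On another probe of Cdkn1a the mean of CPM (8.84) lay below those of TMD (8.98) and PMT (8.97). On the remaining probe CPM (7.79) lay between PMT (7.75) and TMD (8.11). In the deposited signal, before normalization between arrays, Cdkn1a was 1866 to 2414 on the arrays of TMD, PMT and CPM, 2032 to 2870 on those of T3, DEX, TCDD and PCB and 1735 to 2176 on those of E2 and DHT, so these ranges overlapped and were parted only after normalization. Those of DEHP and MPA (2783 to 3003), BPA (2503 and 3114) and DMSO (2668) lay above the first range in the deposited signal too.

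Ccng1 encodes cyclin G1, which binds Mdm2 and a regulatory subunit of protein phosphatase 2A. On the arrays of TMD, PMT and CPM it was 11.40 at the lowest, 11.55 at the median and 11.70 at the highest. It was 12.24 and 12.18 for DEHP, 12.31 and 12.42 for MPA, 11.94 to 12.39 (median 12.23) for the 8 nanomolar arrays of the second set, 12.37 and 12.10 for BPA, 12.58 to 12.79 for E2 and DHT, and 12.76 for DMSO. On this probe the levels fell into 3 ranges that did not overlap, with TMD, PMT and CPM lowest, DEHP, MPA, BPA and the 8 nanomolar arrays between, and E2, DHT and DMSO highest. On a second probe of Ccng1 the arrays of TMD, PMT and CPM (11.40 to 11.69) overlapped with PCB (11.48 and 11.65) and E2 at 10 nM (11.54), and BPA was highest. On its other probe the 6 arrays (10.31 to 10.46) were again below all others, of which E2 at 10 nM (10.68) was the lowest. Ccng1 had the largest ratio to DMSO among the members that were detected on all arrays, -1.22 ± 0.14 (SE, adjusted p = 9.22e-08) for CPM. PCB was lower than T3, DEX and TCDD by 0.29 ± 0.092 (adjusted p = 0.0172).

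Among the genes that act on growth, Sesn1 encodes sestrin 1, which restrains the growth kinase complex mTORC1. On the 10 micromolar arrays it was 10.15 to 10.44, and on the other 15 arrays 10.48 to 10.98, with no overlap, which was so for 1.53% of all genes. DMSO (10.48) was the lowest of the 15, and no micromolar chemical passed against DMSO on this probe. On the arrays of TMD, PMT and CPM it was 10.28 at the lowest, 10.32 at the median and 10.44 at the highest, and on the 8 arrays of T3, DEX, TCDD and PCB 10.60, 10.78 and 10.98. In the deposited signal the 10 micromolar arrays (1280 to 1752) overlapped with the others (1087 to 1909), so the separation appeared only after normalization. On the second probe of Sesn1 the micromolar arrays overlapped with the others also after normalization. PMT and CPM at 0.1 µM (9.76 and 9.74) lay above PCB and E2 at 10 nM (9.67 and 9.70). TMD (-0.50), DEHP (-0.67) and MPA (-0.68) passed as lower than DMSO on this probe. On the first probe TCDD (10.98 and 10.94) stood highest, 0.48 ± 0.13 (SE) above DMSO (adjusted p = 0.0439), and 0.24 above T3, DEX and PCB, which did not pass (adjusted p = 0.166). On the second probe the mean of TCDD (9.96) was below DMSO (10.08). The ratio of TCDD to DMSO on the first probe lost its call in 18 of 34 refits under other settings or with an array left out.

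Among the genes linked to cell death, Trp53inp1 encodes a stress protein that promotes p53-dependent apoptosis and autophagy. It was 10.55 at the lowest, 10.81 at the median and 11.13 at the highest on the arrays of TMD, PMT and CPM, 10.96 and 11.15 for DEHP, and 10.57 and 11.04 for MPA. The 8 nanomolar arrays of the second set stood between 11.22 and 11.68 (median 11.54), BPA at 12.09 and 12.06, DHT at 11.76 and 11.85, E2 at 10.92 and 11.78, and DMSO at 11.76. The 10 micromolar arrays were below every other array but that of E2 at 10 nM, and both BPA arrays were above all others. The largest ratio to DMSO was -1.06 ± 0.21 (SE, adjusted p = 0.00034) for PMT.

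Phlda3 encodes a pleckstrin homology domain protein that holds back the survival kinase Akt. It was 9.57 at the lowest, 9.93 at the median and 10.01 at the highest on the arrays of TMD, PMT and CPM. All other 19 arrays lay between 10.45 and 10.98, among them DEHP at 10.77 and 10.60 and DMSO at 10.82. CPM had the lowest mean (9.71), and its ratio to DMSO was -1.11 ± 0.16 (SE, adjusted p = 6.16e-06). CPM lay 0.26 below TMD and PMT (95% interval -0.50 to -0.028), which did not pass the adjustment. On the second probe of Phlda3 the mean of CPM (9.66) lay above those of TMD (9.60) and PMT (9.43). The second probe of Phlda3 was 9.22 to 9.79 on the arrays of TMD, PMT and CPM and 10.29 to 10.49 on those of DEHP and MPA, and the lowest array of T3, DEX, TCDD and PCB, at 9.78, overlapped with the first of these ranges.

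Bbc3 encodes PUMA, a BH3-only protein that sets off apoptosis at the mitochondrion. Its signal moved little, between 10.58 and 11.19 over the 25 arrays, and no chemical differed from DMSO (10.87), the largest ratio being -0.26 ± 0.14 (SE, adjusted p = 0.198) for BPA. It was 10.59, 10.66 and 10.71 (lowest, median, highest) on the arrays of TMD, PMT and CPM, and 10.90, 10.99 and 11.09 on those of T3, DEX, TCDD and PCB. PCB (11.06) had the highest mean. Aen encodes a nuclease that promotes the breakdown of DNA in dying cells. It was not detected on the DMSO array, on any array of DEHP, MPA or PCB, on the higher-dose arrays of E2 and CPM, or on the lower-dose arrays of DHT and TCDD. BPA, at 6.52 and 6.92, stood above DMSO (adjusted p = 0.021) by at least 1.66-fold. This bound, and the next ones, set the mean of the brighter group against the higher of the lowest well-detected signal and the probe's own signal on each dimmer array. Without the BPA array at 1 pM this call was lost (adjusted p = 0.13). Likewise Aen was lower after PCB than after T3, DEX and TCDD (adjusted p = 0.0202), in which 5 of 6 arrays detected it, with the brighter side at least 1.18-fold higher. With the mean of the kept probes of Aen, of which the other was detected on 3 arrays only, this difference was -0.14 (adjusted p = 0.611). It was lower after DEHP and MPA than after TMD, PMT and CPM (adjusted p = 0.0225), where 5 of 6 arrays detected it, with the brighter side at least 1.21-fold higher. The calls of Aen for PCB and for DEHP and MPA were lost with 1 of several arrays left out, at adjusted p up to 0.267 and 0.0931.

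Mdm2, the ligase that marks p53 for degradation, was 11.94 at the lowest, 12.04 at the median and 12.08 at the highest on the arrays of TMD, PMT and CPM, and 11.66, 11.98, 12.20 and 12.21 on those of DEHP and MPA. On the arrays of T3, DEX, TCDD and PCB it was 12.19, 12.44 and 12.60, for E2 12.51 and 12.08, for DHT 12.24 and 12.42, and for DMSO 12.30. BPA had the highest Mdm2, at 12.79 and 12.89, above all other 23 arrays. Mdm2 after BPA was 0.54 ± 0.17 (SE, adjusted p = 0.0224) above DMSO, which was lost without the BPA array at 1 pM (adjusted p = 0.108) and with its probes averaged (0.15, adjusted p = 0.544), and 0.53 ± 0.12 (adjusted p = 0.000835) above E2 and DHT. The average of the probes of Mdm2 takes in a dim probe, detected on 3 arrays only. Its second probe, detected on all arrays, had means of 12.77 for BPA and 12.62 for DMSO. Zmat3 encodes a zinc finger protein that binds RNA. It was 11.34 and 11.38 for BPA, 11.12 and 10.86 for DHT, 9.92 and 10.74 for E2 and 11.02 for DMSO, against 9.84 to 10.62 on the 18 arrays of the other 9 chemicals. Zmat3 passed as lower than DMSO in 7 of these 9 chemicals, with ratios of -0.80 for DEX to -0.99 for MPA. For T3 (-0.49, adjusted p = 0.203) and TCDD (-0.68, adjusted p = 0.0704) it did not pass. These 9 chemicals make up the other set of the authors' normalization, and set and chemical cannot be told apart in this.

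Against DMSO, 28 of the 108 log2 ratios of the 9 genes passed, 25 of them lower and 3 higher. Of all genes, 0% passed for E2 and for DHT and up to 33.5% for the other chemicals (PMT). The 28 became 18 with the mean of a gene's probes, 43 with the other 11 chemicals in place of DMSO and 46 with the mean of DMSO, E2 and DHT in its place. With the other 11 chemicals in place of DMSO, Ccng1 turned to higher for T3, BPA, DEHP and MPA, passing for MPA (0.25, adjusted p = 0.026), and Zmat3 kept 1 of its 7 calls, that of MPA (adjusted p = 0.164 to 0.378 for the other 6). All 12 comparisons share the single DMSO array, so a high or low value of that array enters each of them. After TMD 5 of 9 genes differed, all lower (31.9% of all genes differed in either direction), after PMT the same 5 (33.5%) and after CPM 4 of them (31.4%). These were Ccng1, Phlda3, Trp53inp1, Zmat3 and, for TMD and PMT, Cdkn1a, at -0.59 and -0.56. For CPM, Cdkn1a differed by -0.34 (adjusted p = 0.0503), and for PMT its call was lost in the table normalized by the authors (adjusted p = 0.0574). After DEHP and MPA, Ccng1, Trp53inp1 and Zmat3 were lower, 3 of 9 genes for each (25.3% and 28.5% of all genes). After T3 Ccng1 was lower (1 of 9, against 3.74% of all genes, 1.39% lower) and after DEX Zmat3 (1 of 9, against 3.68%, 1.42% lower). After PCB Ccng1 and Zmat3 were lower (2 of 9, against 21.6%, 12.5% lower). Sesn1 was higher after TCDD (1 of 9, against 3.31%, 2.06% higher). After BPA Mdm2 and Aen were higher and Ccng1 was lower (3 of 9, 22.4% of all genes), and none of the 3 passed without the BPA array at 1 pM (Ccng1 at adjusted p = 0.097). With its probes averaged Ccng1 (-0.11, adjusted p = 0.58) did not pass for BPA either. The calls of Ccng1 for T3 and MPA, of Zmat3 for DEX and CPM and of Trp53inp1 for TMD and DEHP were also lost with 1 of the chemical's own arrays left out. No gene passed for E2 or DHT in limma (2 genes for E2 and 0 for DHT at an unadjusted p under 0.05), and no gene of all 10656 did (0%).

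**Figure D3:**
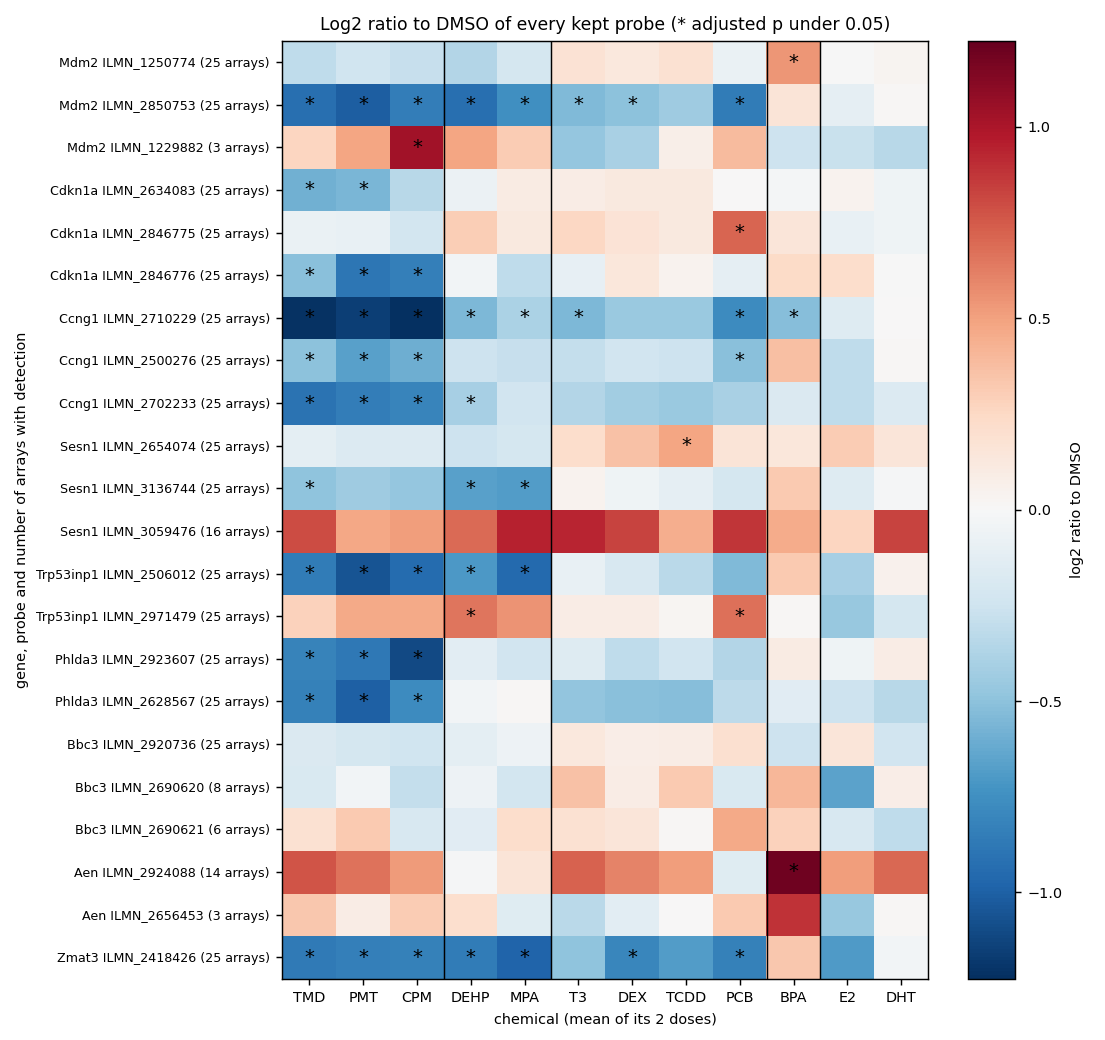
Log2 ratio to DMSO of each of the 22 kept probes (rows, with the number of arrays on which each was detected) for the mean of each chemical's doses (columns). Stars mark an adjusted p under 0.05. Blue stars gather under TMD, PMT and CPM, while probes of Mdm2 and Trp53inp1 differ in colour within the same gene.

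Within the groups of arrays, where dose range and set are shared, few genes differed. No gene passed for TMD, PMT or CPM against the other 2 (0, 0 and 2 genes at an unadjusted p under 0.05 in limma, 0% of all genes after adjustment), or for DEHP against MPA (0 at an unadjusted p under 0.05, 0% of all genes). For DEHP against MPA the 95% intervals of the 9 differences reached from -0.79 to 0.61, with that of Cdkn1a from -0.39 to 0.052 and that of Ccng1 from -0.39 to 0.071. No gene passed for T3 (0 at an unadjusted p under 0.05, 0% of all genes), DEX (0, 0.488%) or TCDD (1, 1.87%) against the rest of their group, or for E2 against DHT (3, 0%). Without the E2 array at 1 nM, which leaves E2 with its 10 nM array, 3 genes passed for E2 against DHT, Trp53inp1 at -0.89, Zmat3 at -1.07 and Bbc3 at 0.56, and without the E2 array at 10 nM none did, with Trp53inp1 at -0.023 (adjusted p = 0.987). Ccng1 and Aen were lower after PCB than after T3, DEX and TCDD (17.2% of all genes were lower, 11.8% higher), and the call of Ccng1 was lost without either PCB array (adjusted p = 0.056 and 0.185) and with its probes averaged (adjusted p = 0.103). Trp53inp1 was 0.34 below T3, DEX and TCDD after PCB, which did not pass (adjusted p = 0.077) but did without either E2 array (adjusted p = 0.0142 and 0.0141), while its other probe was 0.60 higher (adjusted p = 0.00317).

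After BPA, set against E2 and DHT of the same set of arrays, Mdm2 differed by 0.53 ± 0.12, Trp53inp1 by 0.50 ± 0.15, Zmat3 by 0.70 ± 0.15 and Ccng1 by -0.44 ± 0.097 (SE). Of all genes 22.3% were higher and 19.5% lower, so that 4 of 9 genes compares with 41.8% in either direction. Without the E2 array at 10 nM, on which Trp53inp1 and Zmat3 were low, the difference of Trp53inp1 was 0.28 and no longer passed (adjusted p = 0.0668), while Zmat3 (0.49), Mdm2 (0.63) and Ccng1 (-0.45) passed. Without the E2 array at 1 nM, Zmat3 was 0.90, Trp53inp1 0.71, Mdm2 0.42 and Ccng1 -0.43, all 4 passing, and Aen (0.72) and Bbc3 (-0.30) passed as well. Trp53inp1 did not pass without either BPA array (adjusted p = 0.0604 and 0.0739). Ccng1 no longer passed without the BPA array at 1 pM (adjusted p = 0.0622). For Ccng1 the direction depended on the probe. A second probe of Ccng1, detected on all arrays, was higher after BPA, at 12.46 and 12.44, than after E2 and DHT (11.54 to 12.13), by 0.52 ± 0.10 (adjusted p = 0.000167). The mean of the 3 probes of Ccng1 differed by 0.049, and that of the probes of Mdm2 by 0.26, which did not pass (adjusted p = 0.0586). The mean for Mdm2 takes in its probe that was detected on 3 arrays only.

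Probes of a gene also parted elsewhere. The probes of Trp53inp1, both detected on all 25 arrays, correlated at r = -0.48 over the arrays, which is given as a description. Where the probe that stood for the gene fell by 0.62 after micromolar chemicals, the other rose by 0.26 ± 0.088 (SE, adjusted p = 0.0141). On the second probe the arrays of TMD, PMT and CPM lay at 9.22 to 9.88, those of DEHP and MPA at 9.46 to 9.82, those of T3, DEX, TCDD and PCB at 9.01 to 9.79 and that of DMSO at 9.09. PCB was 0.67 and DEHP 0.66 above DMSO on it (adjusted p = 0.0323 and 0.0334). With the mean of its probes Trp53inp1 lost its calls against DMSO for TMD, PMT, CPM, DEHP and MPA (adjusted p = 0.274 to 0.947) and that for micromolar against nanomolar chemicals (-0.18, adjusted p = 0.0647). The second probe of Mdm2 was 11.41 to 11.80 on the arrays of TMD, PMT and CPM, 11.65 to 12.00 for DEHP and MPA, 11.74 to 12.28 for T3, DEX, TCDD and PCB, and 12.47 to 12.85 for BPA, E2 and DHT, with DMSO at 12.62. All 18 arrays of the second set thus lay below all 7 arrays of the first, and on this probe 8 of the 9 chemicals of the second set passed against DMSO, with falls of 0.51 to 1.01. These are the sets of the authors' normalization, and set and chemical cannot be told apart in this. How many of all probes part in this way was not counted. The first probe of Mdm2 passed against DMSO in none of these 9 chemicals. One further probe of Mdm2 was detected on 3 arrays only. With the mean of its probes, which takes in this dim probe, the difference of Mdm2 between micromolar and nanomolar chemicals was -0.023 (adjusted p = 0.775). The mean of the second probe was 11.69 after TMD, PMT and CPM, 11.78 after DEHP and MPA and 12.03 after the nanomolar chemicals. That of the dim probe was 5.67, 5.47 and 4.97. A probe of Cdkn1a was higher after PCB than DMSO by 0.71 ± 0.20 (SE, adjusted p = 0.00989), at 9.84 and 9.70 against 9.06, while the probe that stood for Cdkn1a differed by 0.0092. On that probe TMD, PMT and CPM (8.69 to 9.02) were not apart from the rest, with E2 at 8.75, DHT at 8.94 and MPA at 8.99 on 1 array each and DMSO at 9.06. The remaining probe of Cdkn1a was lower after TMD, PMT and CPM, at 7.70 to 8.17 against 8.30 to 9.04 on all other arrays. No file here gives the position of a probe in its transcript.

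**Figure D4:**
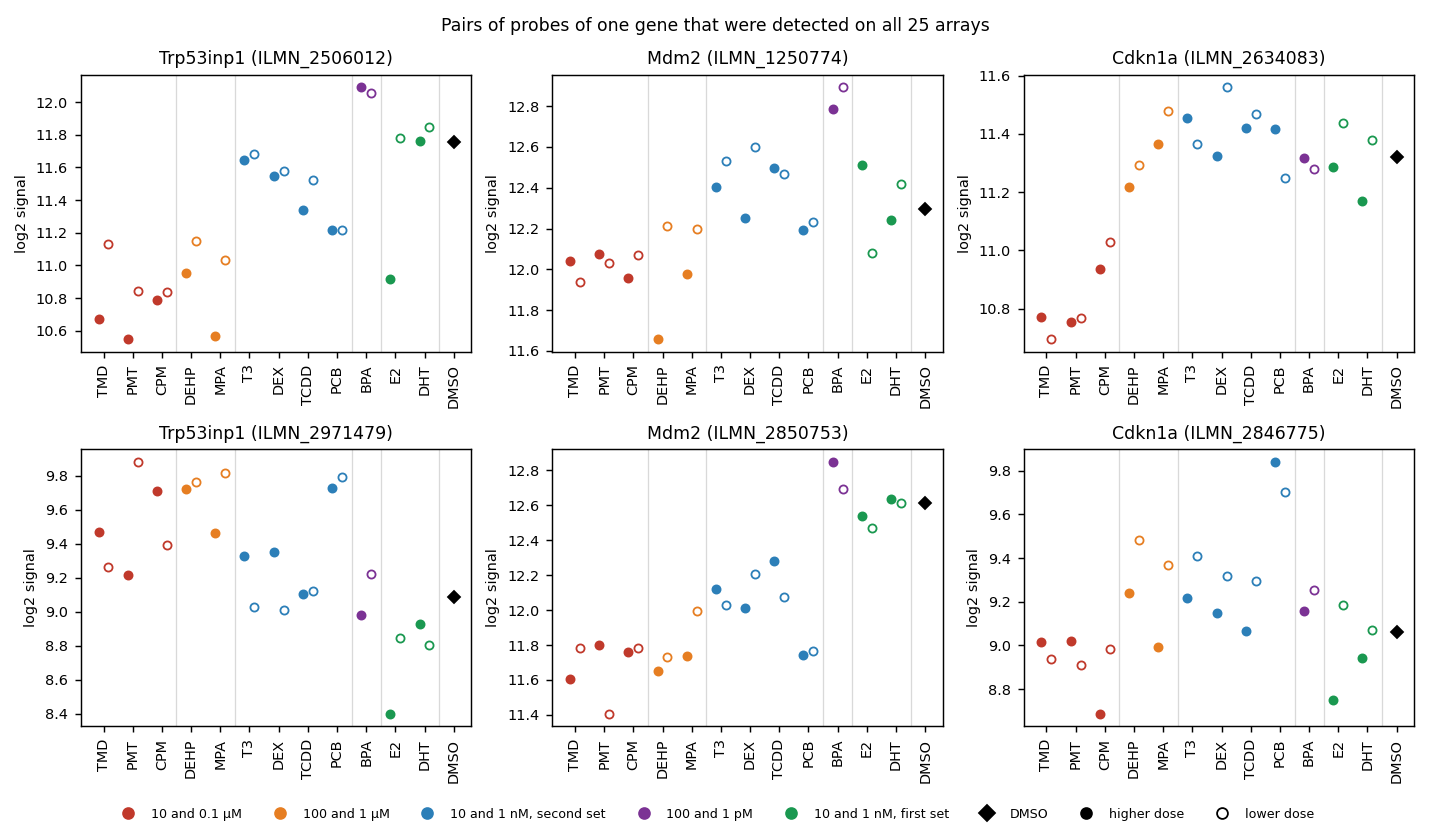
Log2 signal on each array of pairs of probes of Trp53inp1, Mdm2 and Cdkn1a, with the higher dose filled and left of the lower dose (open) and DMSO at the right. For Trp53inp1 the upper probe is low after micromolar chemicals (10.55 to 11.15) where the lower probe is not (9.22 to 9.88, with DMSO at 9.09).

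Between the doses of a chemical, no gene passed over the 12 chemicals (0 of 9 in limma, 2 at an unadjusted p under 0.05, and 0% of all genes) or over the 5 micromolar chemicals (0 of 9, 2 at an unadjusted p under 0.05, and 0% of all genes). Those 2 genes were Trp53inp1 and Zmat3. Trp53inp1 was lower at the higher dose in 10 of 12 chemicals, by 0.22 on average (SD 0.27, two-sided exact sign-flip permutation p = 0.00293, adjusted p in limma 0.220). Zmat3 was lower at the higher dose in 10 of 12, by 0.19 on average (SD 0.27, two-sided exact sign-flip permutation p = 0.022, adjusted p in limma 0.271). The widest differences of both were those of E2, -0.87 and -0.82. With E2 left out the means were -0.16 (exact sign-flip permutation p = 0.00586) and -0.14 (p = 0.0439), and that of Mdm2 was -0.14 (p = 0.0273). The other probe of Trp53inp1, also detected on all arrays, was higher at the higher dose for DHT (0.13), T3 (0.30), DEX (0.34), TMD (0.21) and CPM (0.32). It was lower at the higher dose for the remaining chemicals, among them PMT (-0.66), E2 (-0.44) and MPA (-0.35). For the other 7 genes the mean difference between doses was within -0.13 and 0.035 over the 12 chemicals. Whether the micromolar chemicals differed in this from the others, BPA among them, was tested as an interaction, which no gene passed (adjusted p = 0.999 for each). The doses of the micromolar chemicals lay 100-fold apart, as did those of BPA.

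**Figure D5:**
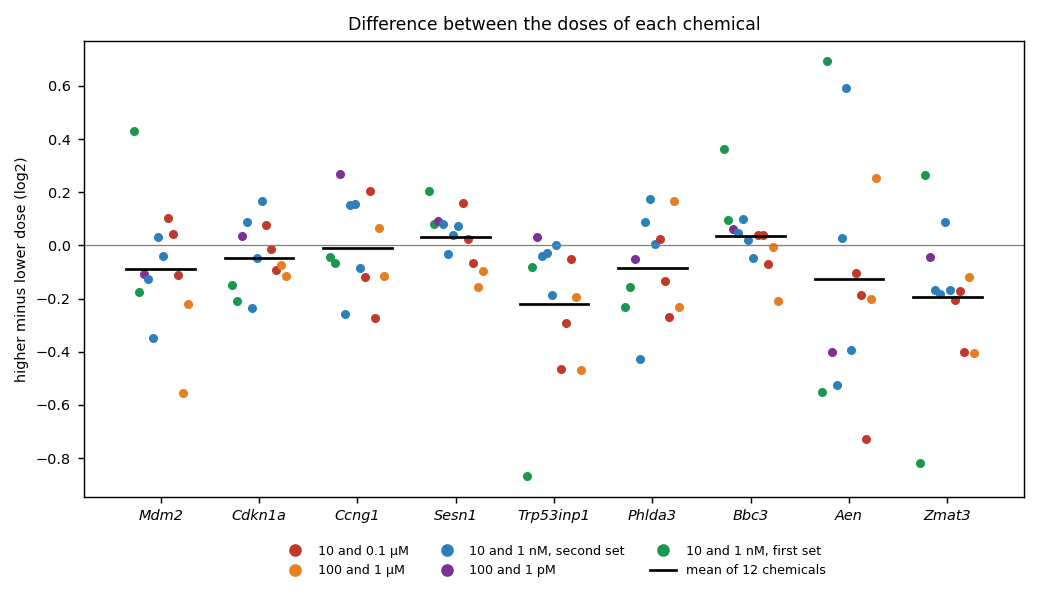
Log2 difference between the higher and the lower dose of each of 12 chemicals (points, coloured by dose range and set) with their mean (bar). The bars of Trp53inp1 and Zmat3 lie at -0.22 and -0.19, and those of the other genes between -0.13 and 0.035.

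Over the 25 arrays the 9 genes mostly moved together. Of their 36 pairs, 32 correlated above 0, with a median r of 0.48, and within the groups of arrays the median r was 0.13. The arrays of a group share chemical dose range and set, so r is given as a description. The highest were Ccng1 with Phlda3 (0.89 over all arrays, 0.46 within groups) and Trp53inp1 with Zmat3 (0.84 over all arrays, 0.81 within groups). The genes of the whole array whose signal was most like that of Cdkn1a over the 25 arrays were Cd151 (r = 0.89), Sun2 (0.89), Mfge8 (0.88), Tulp2 (0.87) and Heca (0.87). Within the groups of arrays their r with Cdkn1a was 0.27 to 0.42.

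Markers of another cell type differed between the same arrays as Cdkn1a, Ccng1 and Phlda3. Primitive and visceral endoderm covers the outer face of the EB, and the summed signal of its 9 markers was 7253 to 8782 on the arrays of TMD, PMT and CPM. It was 21688 to 25396 for DEHP and MPA, 11481 to 25082 for T3, DEX, TCDD and PCB, 18538 to 24131 for E2 and DHT and 19871 for DMSO. On the arrays of TMD, PMT and CPM, 4 of the 9 markers (Gata4, Foxa2, Afp and Apoa1) were not detected. Of these, Gata4 and Afp were also not detected for DMSO, for E2 and DHT, or for T3, DEX, TCDD and PCB. For DEHP and MPA only Afp was not detected. For BPA the sum was lower still, 2337 and 2437, with 6 of 9 not detected (Gata4, Sox17, Foxa2, Afp, Ttr and Apoa1). On the BPA arrays Cdkn1a was 11.32 and 11.28 (DMSO 11.32), Phlda3 10.89 and 10.94 (DMSO 10.82) and Ccng1, which passed as lower, 12.37 and 12.10 (DMSO 12.76). The summed signal of the 5 fibroblast markers was 294 to 377 for TMD, PMT and CPM and 566 to 664 for DEHP and MPA. It was 475 to 724 for T3, DEX, TCDD and PCB and 492 and 567 for BPA. For E2 and DHT it was 693 to 843, and for DMSO 817. Only Thy1 was detected on the arrays of TMD, PMT and CPM, and likewise on those of DEHP and MPA and of E2 and DHT. Of the trophoblast markers mostly Tfap2c was detected, and their sum was 2644 to 3298 on the arrays of TMD, PMT and CPM, 926 to 1197 for DEHP and MPA, 2374 to 4205 for T3, DEX, TCDD and PCB, 5336 and 6726 for BPA, 3306 to 3492 for E2 and DHT and 4307 for DMSO. The sum of the pluripotency genes was 13789 to 15206 on the arrays of TMD, PMT and CPM, 11132 to 13684 for DEHP and MPA, 10948 to 13861 for T3, DEX, TCDD and PCB, 17428 and 17482 for BPA, 12290 to 13352 for E2 and DHT and 13003 for DMSO. The part of these cells in the levels of the p53 targets was not tested.

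Beyond the 9 genes, 38 other targets of p53 were listed, of which 31 had a kept probe. After micromolar chemicals 12 of the 31 were lower and 3 higher than after the nanomolar chemicals, against 28.9% and 21.5% of all genes, and their median difference was -0.093, against -0.039 for all genes. The 12 that act in repair and metabolism included 7 lower and none higher, with Ddit4, an inhibitor of mTORC1, at -1.01 ± 0.056 and Rrm2b, a subunit of ribonucleotide reductase, at -0.52 ± 0.11 (SE). Of 9 that act in cell death 3 were lower and 1 higher, with Dram1, a lysosomal protein of autophagy, at -0.82 ± 0.074 and Pmaip1, which encodes the BH3-only protein NOXA, at 0.54 ± 0.067. Of 6 that act on the cell cycle 2 were lower (Sfn, which encodes 14-3-3 sigma, and Ptprv), and of 4 that feed back on p53 none was lower and Ppm1d and Rchy1 were higher. After BPA, 12 of the 31 were higher and 5 lower than after E2 and DHT (22.3% and 19.5% of all genes), with Sfn at 1.62 ± 0.19, Dram1 at -3.44 ± 0.14 and Ddit4 at -2.02 ± 0.10 (SE). After DEHP and MPA, 6 of the 31 were higher and 5 lower than after TMD, PMT and CPM (15.1% and 19.3% of all genes), with a median of -0.027 against -0.047 for all genes, Dram1 at 1.57 ± 0.10 and Sfn at -1.25 ± 0.14 (SE).

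Of 13 kinases and other regulators of p53 with a kept probe, 6 were higher and none lower after micromolar than after nanomolar chemicals, among them Usp10, a deubiquitinase of p53, at 0.82 ± 0.091 and Chek1, a checkpoint kinase, at 0.57 ± 0.11 (SE). The shares over all genes, here and for the lists below, were 21.5% higher and 28.9% lower. Of 6 cell cycle genes that p21 is known to repress, 4 were lower and none higher in that comparison, with Cdc25c at -0.41 ± 0.092 and Aurka at -0.26 ± 0.052 (SE). Of 7 relatives of the members, 5 were lower and 1 higher, with Cdkn1b, which encodes the kinase inhibitor p27, at -1.06 ± 0.12 and Sesn3, which encodes sestrin 3, at 0.55 ± 0.13 (SE).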

How the data were processed

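RNA of mouse EBs after 48 h of exposure was measured on 25 arrays. The authors deposited the intensity of each probe, background-subtracted and not normalized (31.7% to 35.0% of values per array were below 0), with a detection p-value for each. Another deposited table holds intensity values that the authors normalized in GeneSpring, in sets of 7 and 18 arrays. The methods name another version of the array than the tables do.

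From the non-normalized intensity, background was corrected from the detection p-values (nec, offset 16), and the 25 arrays were quantile-normalized and put on the log2 scale (limma 3.58.1, R 4.3.3). Each chemical was a group of 2 arrays and DMSO 1 array, which was assumed to vary like the others (eBayes with trend, 12 residual degrees of freedom). The number of arrays limits the precision. The fit was tested on simulated data.

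The members and lists were chosen with earlier results of these data known. All members are described, with the differences that passed and each member's largest ratio to DMSO; from other lists at most 2 genes that passed per comparison; and the 5 genes most like Cdkn1a. Probes other than a gene's brightest were picked after their values were seen. Alternatives were other backgrounds, scalings, filters, probes, references and units, the authors' table, a dose term and leaving out each array. No array was left out of the main analysis.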

Additional observations from a re-analysis of the deposited data

Results flagged for a closer look

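One of 36 groups of 4 to 8 arrays, over the 9 genes, had an array far from the others, where chance gives about 1 in 20. In the group of E2 and DHT, Trp53inp1 was 10.92 on the E2 array at 10 nM and 11.76 to 11.85 on the other 3 arrays, a gap of 0.91 of the whole range. The other probe of Trp53inp1 was also lowest on that array, at 8.40.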

How the results depend on the processing

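Of 1521 refits of the 45 differences of single genes that passed, 1430 kept their direction and call, 86 lost the call and 5 turned. Ccng1 turned to 0.049 for BPA against E2 and DHT with the mean of all probes, and to 0.11 for BPA, 0.079 for T3, 0.075 for DEHP and 0.25 for MPA when the other 11 chemicals took the place of DMSO. Calls against DMSO numbered 28 of 108. They numbered 18 with the mean of all probes, 43 with the other 11 chemicals and 46 with DMSO, E2 and DHT as the reference. Calls within groups of arrays and of BPA against E2 and DHT (6, of which 4 for BPA) fell to 3 with the mean of all probes, and genes that differed within groups (0) numbered 1 with scaling to the 75th percentile. Micromolar against nanomolar calls (7) fell to 4 with chemicals as units. By exact sign-flip permutation without adjustment 2 genes differed between doses, and 3 with E2 left out. With arrays left out in turn, calls numbered 25 to 35 against DMSO, 4 to 15 within groups and for BPA, 7 to 8 for micromolar against nanomolar, 3 to 4 for DEHP and MPA against TMD, PMT and CPM, 8 to 9 among all chemicals, 0 to 3 among chemicals within groups and 0 to 0 for both tests of dose. The 15 and 3 came without the E2 array at 1 nM, where 3 genes for E2 against DHT count again for its inverse. With the dose level as a replicate block 31 of the 108 ratios to DMSO passed, and 8 of the 9 genes passed for micromolar against nanomolar. The doses share only a level across chemicals, so this pairs no cultures. The table normalized by the authors shifted the median of all kept probes against DMSO by 0.30 to 0.32 for TMD, PMT and CPM. The alternatives without PCB, with TMD, PMT and CPM alone and without E2 between doses were chosen after seeing the data.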
